A study of Ovis aries with 8 samples.

Results

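LEF1, FGFR2, CCND2 and CDKN1C are 4 genes of growth signalling and cell cycle control that an Agilent sheep expression array reads with 6 of its 15008 probes, out of 1019 gene names found on it. The probes were taken by name: both probes of LEF1, both of FGFR2, and the single probes of CCND2 and CDKN1C. The genes were chosen by their measured log2 difference between treated and control fetuses, which was already known, so that difference is given below as a description and without a test.

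The series holds hypothalami of 8 fetal sheep from 4 twin sets, 1 array per fetus. In each set, according to the labels, 1 twin received estradiol-3-sulphate at 1 mg per day into the lateral cerebral ventricle from an implanted osmotic mini-pump, and its co-twin was the control. These groups of 4 are called estradiol sulphate (E2S) and vehicle here. All fetuses carried indwelling catheters. They were operated on at gestational days 120 to 127 and killed for tissue on days 130 to 134. The labels give the infusion as 7 to 12 days in 1 place and 7 to 10 in another, and the controls as untreated in 1 place and infused with saline in another. RNA had been stored for 7 years before labelling. The labels give neither the sex of the fetuses nor which replicate numbers belong to co-twins.

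LEF1 is a DNA-binding partner of beta-catenin that turns on Wnt target genes in the nucleus, and in the vertebrate hypothalamus it is known for its part in the formation of neurons. FGFR2 is a receptor tyrosine kinase for fibroblast growth factors, made in splice forms named IIIb and IIIc that differ in the outer domain that binds the ligand. Both pathways act on the cell cycle, in which cyclin D2 (CCND2) activates the kinases that start division, and p57 (CDKN1C), the product of an imprinted gene, inhibits cyclin-dependent kinases.

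The LEF1 and FGFR2 probes come in overlapping pairs, printed because each pair reads nearly the same stretch of 1 transcript and so gives a second reading of each fetus. Each probe has 60 bases, printed as the deposited scanner files list it, and capitals mark the stretch that both probes of a pair share.
LEF1, A_70_P068132: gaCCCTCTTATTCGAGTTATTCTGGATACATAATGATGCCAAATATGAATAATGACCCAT
LEF1, A_70_P068131: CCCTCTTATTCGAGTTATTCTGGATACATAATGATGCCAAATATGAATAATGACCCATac
FGFR2, A_70_P041781: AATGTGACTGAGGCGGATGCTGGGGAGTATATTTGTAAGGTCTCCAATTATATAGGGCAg
FGFR2, A_70_P041782: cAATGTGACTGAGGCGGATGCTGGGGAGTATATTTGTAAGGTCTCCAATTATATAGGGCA
CCND2, A_70_P005691: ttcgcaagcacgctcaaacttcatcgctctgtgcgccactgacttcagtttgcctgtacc
CDKN1C, A_70_P004976: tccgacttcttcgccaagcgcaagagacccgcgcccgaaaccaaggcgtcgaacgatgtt
The LEF1 probes share 58 bases and the FGFR2 probes 59, in both cases within a sequence that the array design calls a partial coding sequence. The design names the FGFR2 sequence as the IIIb form, and how far the probes also bind IIIc was not tested. CCND2 is read through an expressed sequence tag and CDKN1C through a RefSeq transcript. The share of G and C was 35% in both LEF1 probes, 45% in both FGFR2 probes, 53.3% in CCND2 and 60% in CDKN1C. No probe outside the 6 shared a run of 20 or more bases with any of them.

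All values below are log2 of the processed spot intensity minus the log2 of the 75th percentile of that array, so a value of 0 is as bright as that percentile. A probe is called well above background on an array where the scanner software set that flag. The arrays of the E2S group were brighter. The 75th percentile of intensity ran from 1597 to 2282 in the E2S group and from 981.5, in vehicle fetus 4, to 1633 in the vehicle group. Probes well above background made up 77.0% to 83.1% and 67.8% to 77.3% of each array. All arrays lay on 1 slide. The first number of the array position was 1 for all E2S fetuses and 2 for all vehicle fetuses. An effect of position on the slide therefore cannot be told apart from that of the infusion. Correlations between arrays of a group were 0.972 to 0.991. In limma, no probe of the 11748 tested passed an adjusted p of 0.05, with 733 higher and 344 lower in the E2S group at an unadjusted p under 0.05. The difference between groups changed with brightness: with the probes put in 5 equal bins by mean brightness, its median was 0.20 in bin 1, the dimmest, 0.01 in bin 4 and -0.12 in bin 5, against 0.04 over all. The 4 LEF1 and FGFR2 probes lay in bin 1, CCND2 in bin 4 and CDKN1C in bin 5. These shifts are not removed from the values below, and their part in the members' differences was not tested.

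The tissue label was set against marker genes. Of 18 marker genes of hypothalamic neurons, 11 were on the array by name, and 8 of them (POMC, NPY, OXT, SST, GAL, NPVF, PMCH and TAC3) were well above background in all 8 fetuses. Of the pituitary markers on the array, GH, FSHB and POU1F1 were not above background in any fetus, whereas LHB and PRL were in all. The remaining marker, CGA, was in 4 E2S and 2 vehicle fetuses. Its log2 difference, E2S minus vehicle, was 1.82 ± 1.37 (SE; limma, unadjusted p = 0.216). Of the choroid plexus markers on the array, TTR and IGF2 were above background in all fetuses and the AQP1 probe used was in none. The summed level of these 3 varied more in the E2S group, from 0.468 in fetus 1 to 6.78 in fetus 4 times the 75th percentile, than in the vehicle group, from 0.660 to 1.47.

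LEF1 was higher in the E2S group, at about double the vehicle level, and 1 of its 2 probes separated all fetuses of the groups. On A_70_P068132 the log2 values were -4.22, -3.68, -3.94 and -4.21 in E2S fetuses 1 to 4, and -4.99, -5.08, -5.33 and -5.04 in vehicle fetuses 1 to 4. Every E2S fetus was above every vehicle fetus, with a gap of 0.77 between the nearest, and E2S fetus 2 was the highest. The group means were -4.01 ± 0.26 and -5.11 ± 0.15 (SD, n = 4 each), a log2 difference of 1.10 with a fitted SE of 0.15, or 2.14-fold. The spots were dim. Processed intensity was 91.9, 161, 149 and 86.2 in the E2S group and 51.3, 44.4, 32.8 and 29.8 in the vehicle group, where the probe was well above background only in fetus 1. The error that the scanner software gives for these spots was 10.7% to 29.7% of the signal. Because the vehicle values lie near background, the size of the difference depends on how background is treated: with normexp background correction and quantile normalization it was 0.40, still with no overlap between the groups.

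The other LEF1 probe, A_70_P068131, gave nearly the same mean difference but did not separate the groups. Its log2 values were -4.62, -4.07, -4.14 and -4.87 in E2S fetuses 1 to 4, and -4.25, -7.12, -5.83 and -4.84 in vehicle fetuses 1 to 4. Vehicle fetus 1 was above E2S fetuses 1 and 4, and vehicle fetus 4 was just above E2S fetus 4. The means were -4.42 ± 0.38 and -5.51 ± 1.25 (SD, n = 4 each), a log2 difference of 1.09 with a fitted SE of 0.54, or 2.12-fold. Vehicle fetus 2 carried much of it: the difference was 0.55 without that fetus and 1.51 without vehicle fetus 1. In vehicle fetus 2 the intensity was 10.9, the lowest of the 8, with a scanner error of 91.6% of the signal. As with its partner, this probe was well above background in all 4 E2S fetuses and in vehicle fetus 1 alone. With normexp and quantile normalization its difference was 0.28.

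**Figure D1:**
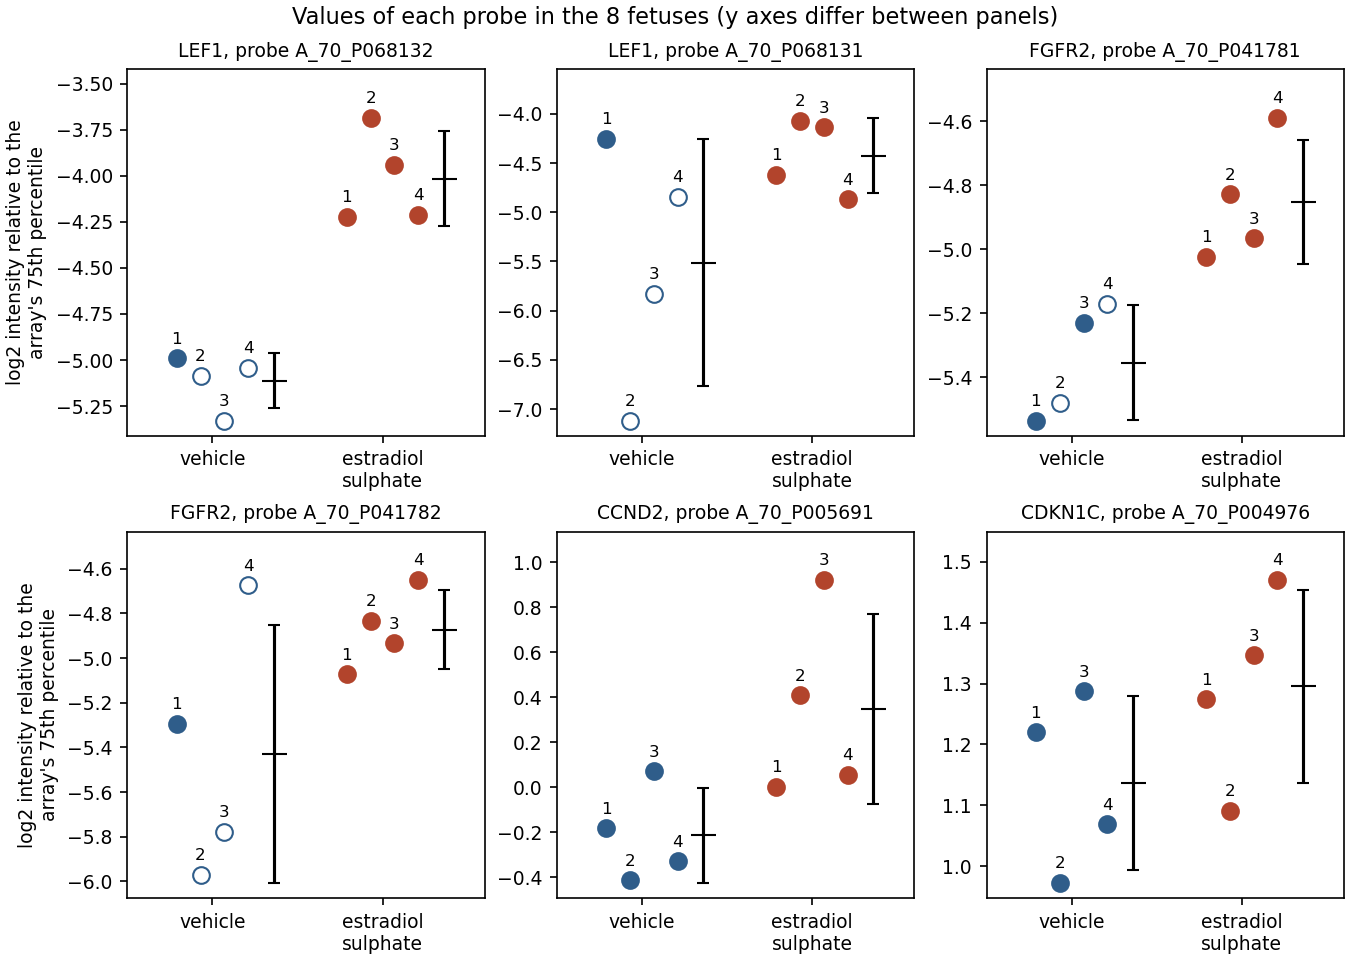
Log2 intensity relative to the array's 75th percentile (y axis, a different range in each panel) for the 6 probes in the 4 vehicle and 4 estradiol sulphate fetuses, with the replicate number above each point. Filled points were well above background and open points were not, and bars show the group mean and SD. The groups separate on LEF1 probe A_70_P068132 and FGFR2 probe A_70_P041781 and overlap on the other 4.

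FGFR2 (IIIb sequence) was higher in the E2S group by less than LEF1, and again with separation on 1 probe of 2. On A_70_P041781 the log2 values were -5.02, -4.83, -4.97 and -4.59 in E2S fetuses 1 to 4, and -5.54, -5.48, -5.23 and -5.17 in vehicle fetuses 1 to 4. Every E2S fetus was above every vehicle fetus, although the nearest were only 0.15 apart. The means were -4.85 ± 0.19 and -5.35 ± 0.18 (SD, n = 4 each), a log2 difference of 0.50 with a fitted SE of 0.14, or 1.42-fold. Intensity ran from 52.7 to 73.0 in the E2S group and from 27.2 to 35.2 in the vehicle group. The probe was well above background in all E2S fetuses and in vehicle fetuses 1 and 3.

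On A_70_P041782, shifted by 1 base, the values were -5.07, -4.83, -4.93 and -4.65 in E2S fetuses 1 to 4, and -5.29, -5.97, -5.78 and -4.67 in vehicle fetuses 1 to 4. Vehicle fetus 4 was above 3 of the 4 E2S fetuses, while the other vehicle fetuses were below all of them. The means were -4.87 ± 0.18 and -5.43 ± 0.58 (SD, n = 4 each), a log2 difference of 0.56 with a fitted SE of 0.26, or 1.47-fold. In the vehicle group this probe was well above background only in fetus 1. The 2 FGFR2 differences were 0.31 and 0.35 with quantile normalization and 0.20 and 0.11 with normexp and quantile normalization. On A_70_P041781, 2 E2S fetuses were above every vehicle fetus with quantile normalization, and 3 with cyclic loess, with median scaling and in the authors' deposited log2 values. With normexp the groups separated.

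Across the 6 probes, 2 had groups that did not overlap with the E2S group higher, as had 3.29% of all probes tested, and 0 had groups that did not overlap with the E2S group lower, as had 2.68%. The genes were picked with this contrast known, so nothing is read from that count. All 4 LEF1 and FGFR2 probes were flagged well above background on the 4 E2S arrays, which by itself met the filter of 4 arrays. More cells that express a gene and more of its RNA per cell cannot be told apart in a whole hypothalamus.

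The overlapping probes give a direct reading of measurement error. For LEF1, A_70_P068132 minus A_70_P068131 was 0.20 to 0.66 in the E2S group (SD 0.19) and -0.74 to 2.03 in the vehicle group (SD 1.20). For FGFR2, A_70_P041781 minus A_70_P041782 was -0.03 to 0.06 in the E2S group (SD 0.04) and -0.50 to 0.55 in the vehicle group (SD 0.52). In both genes the probes of a pair stayed close to each other in the E2S fetuses and came apart in the vehicle fetuses, where most spots were not well above background. Over all 8 fetuses the SD of this difference was 0.80 for LEF1 and 0.35 for FGFR2. Among 198 pairs of probes of named genes whose starts lie at most 10 bases apart, the median SD was 0.12, with 1 pair above LEF1 and 20 above FGFR2. Among the 30 of these pairs that were as dim, the median was 0.34, again with 1 pair above LEF1 and with 14 above FGFR2.

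**Figure D2:**
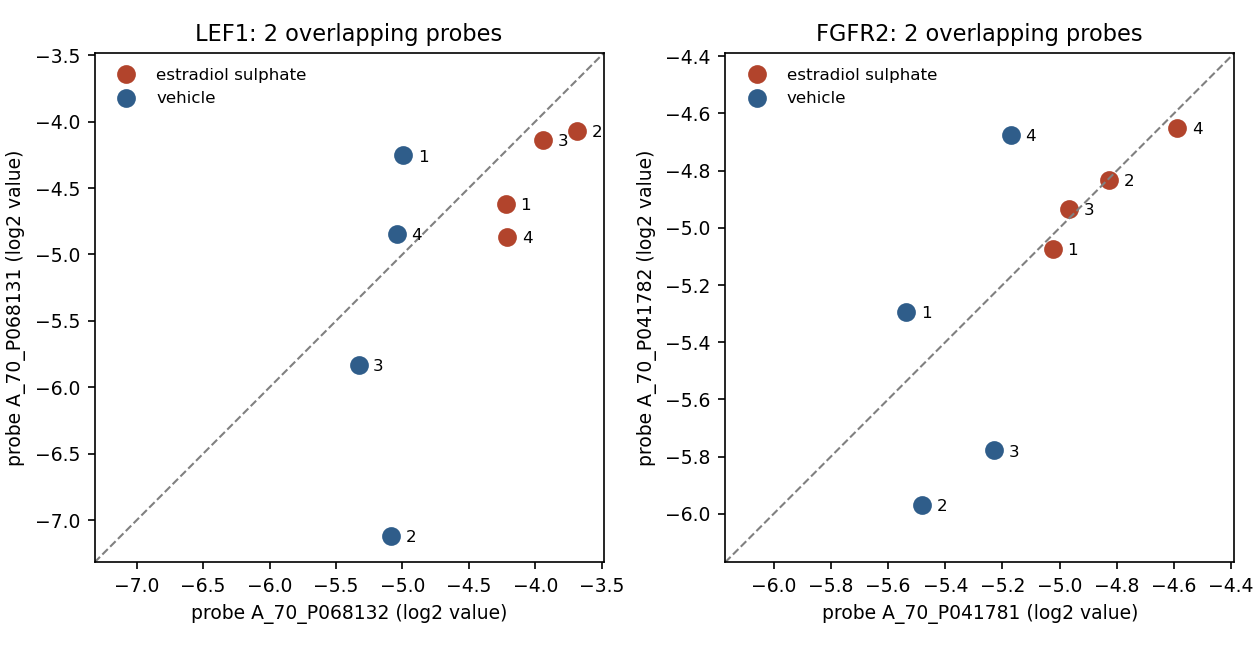
Log2 values of the 2 overlapping probes of LEF1 (left) and of FGFR2 (right), 1 point per fetus with its replicate number, on equal axes, and a dashed line where both probes would be equal. E2S points lie in a narrow band along the line, with LEF1 0.20 to 0.66 below it, and vehicle points scatter on both sides, with the LEF1 point of vehicle fetus 2 the farthest away at 2.03.

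CCND2, the cyclin of the set, was higher on average in the E2S group, with 1 fetus well above the rest. Its log2 values were 0.00, 0.41, 0.92 and 0.06 in E2S fetuses 1 to 4, and -0.18, -0.41, 0.07 and -0.33 in vehicle fetuses 1 to 4. Only vehicle fetus 3 reached into the E2S range, where it lay above E2S fetuses 1 and 4. The means were 0.35 ± 0.42 and -0.21 ± 0.21 (SD, n = 4 each), a log2 difference of 0.56 with a fitted SE of 0.21, or 1.47-fold. Without E2S fetus 3, the highest, the difference was 0.37. Intensity ran from 1660 to 4319 in the E2S group and from 781 to 1439 in the vehicle group, and the probe was well above background in all 8 fetuses with a scanner error of 10.0% to 10.1%. Measurement at the spot was therefore firmer than for LEF1 and FGFR2, and the other scalings and background treatments gave 0.46 to 0.56.

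CDKN1C, the inhibitor, had the smallest difference of the 4 genes. The log2 values were 1.27, 1.09, 1.35 and 1.47 in E2S fetuses 1 to 4, and 1.22, 0.97, 1.29 and 1.07 in vehicle fetuses 1 to 4. The groups overlapped, with 2 E2S fetuses above every vehicle fetus and 2 vehicle fetuses below every E2S fetus. The means were 1.30 ± 0.16 and 1.14 ± 0.14 (SD, n = 4 each), a log2 difference of 0.16 with a fitted SE of 0.13, or 1.12-fold. It was 0.05 when each array was scaled to its median and in the authors' deposited log2 values, 0.10 without E2S fetus 4, and 0.10 without vehicle fetus 2. Intensity ran from 4149 to 5804 in the E2S group and from 2059 to 3805 in the vehicle group. Before any scaling between arrays, an added comparison made after the data were seen, all 4 E2S fetuses were thus above all 4 vehicle fetuses for CDKN1C, and the same held for CCND2, both FGFR2 probes and LEF1 A_70_P068132. The E2S arrays were brighter as a group, and the CDKN1C difference was 0.66 before scaling against 0.16 after it. The share of all probes that separate before scaling was not counted, so nothing is read from this separation.

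**Figure D3:**
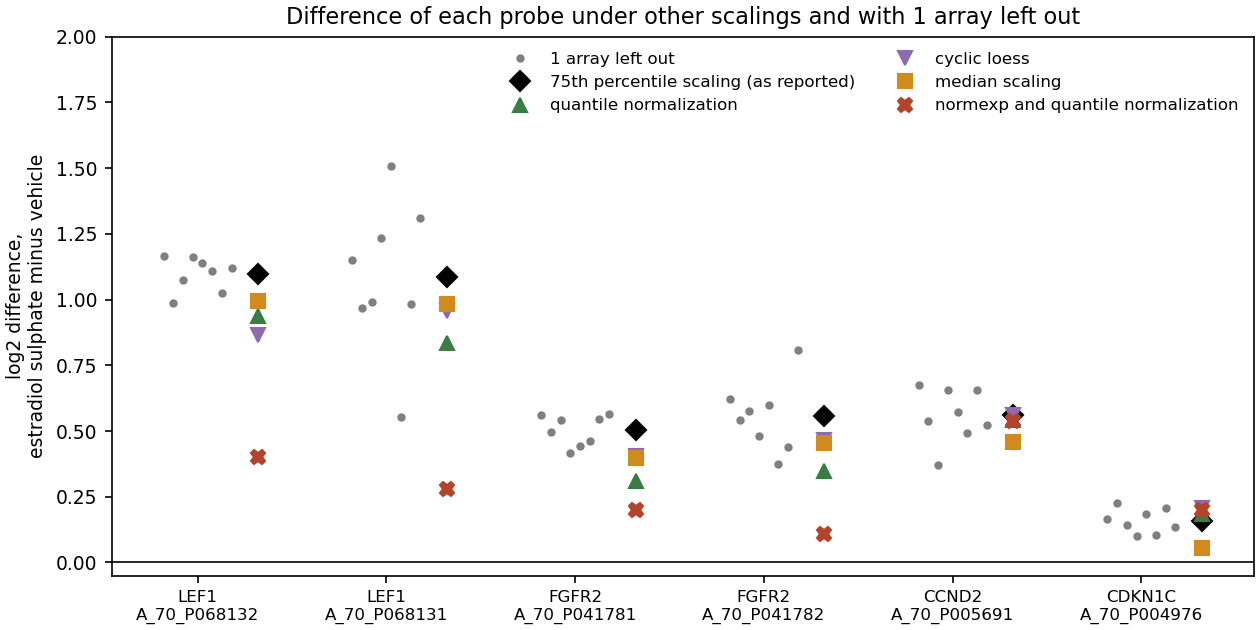
Log2 difference, E2S minus vehicle, of each of the 6 probes (x axis) as reported (black diamonds), under 4 other scalings or background treatments (coloured symbols) and with each of the 8 arrays left out in turn (grey points). All values lie above 0. The normexp values fall to 0.40, 0.28, 0.20 and 0.11 for the 4 LEF1 and FGFR2 probes and stay at 0.54 for CCND2.

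Within the groups, correlations between the 4 genes went in both directions. With each value centred on its group mean, Pearson's r over the 8 arrays was 0.42 between the LEF1 probes and 0.50 between the FGFR2 probes. Between probes of different genes it ran from -0.66, for LEF1 A_70_P068132 and CDKN1C, to 0.67, for LEF1 A_70_P068131 and FGFR2 A_70_P041782, and 8 fetuses on 1 slide share brightness and background. With overlapping probes of 1 gene at only 0.42 and 0.50, these values cannot show whether the genes vary together. E2S fetus 2 was highest of its group for LEF1, E2S fetus 3 for CCND2 and E2S fetus 4 for FGFR2 and CDKN1C.

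The genes most like LEF1 within groups included a pair of hypothalamic peptide genes. Among 797 named genes, centred values of the LEF1 probe A_70_P068132 were most correlated with POMC (r = 0.96), which encodes the precursor of the melanocortins, NAMPT (0.94), an enzyme of NAD synthesis, and GHRH (0.91), the growth hormone releasing peptide. POMC was 0.50, 3.39, 2.25 and 0.16 in E2S fetuses 1 to 4 and 1.13, -0.16, -0.51 and 0.73 in vehicle fetuses 1 to 4. Its highest values were therefore in E2S fetuses 2 and 3, as for LEF1. GHRH was -3.35, 0.26, -0.51 and -3.35 in the E2S group and -2.84, -5.34, -5.54 and -3.53 in the vehicle group, with the same 2 E2S fetuses on top and 2 vehicle fetuses well above background. The LEF1 values span far less than those of either peptide gene. This LEF1 probe was well above background in only 1 vehicle fetus, and its r with its overlapping partner was only 0.42. Likeness was not computed for that partner, so no link between LEF1 and these genes is read from it.

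**Figure D4:**
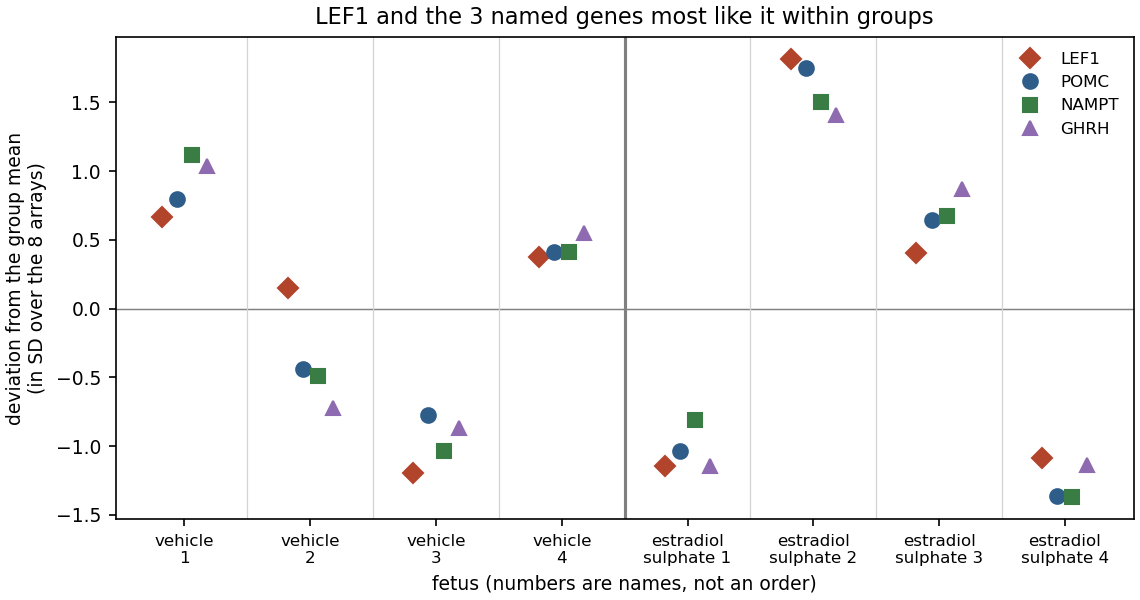
Deviation from the group mean, in units of the SD over the 8 centred values, for LEF1 (A_70_P068132) and for POMC, NAMPT and GHRH in each fetus (x axis). All 4 genes are above the group mean in vehicle fetuses 1 and 4 and in E2S fetuses 2 and 3, and below it in vehicle fetus 3 and in E2S fetuses 1 and 4. The genes beside LEF1 were picked for the highest correlation with this 1 probe.

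FGFR2 (A_70_P041781) was most like CRYBB3, a crystallin gene (r = 0.93), ITGAV, an integrin subunit (0.93), and the cell cycle kinase gene CDK4 (0.90). CCND2 was most like SERPINF1, which encodes the secreted factor PEDF (0.97), GLRX, a glutaredoxin (0.87), and RAB9A, a small GTPase of vesicle transport (0.86). SERPINF1 was -4.64, -4.02, -3.62 and -4.70 in E2S fetuses 1 to 4, with fetuses 3 and 2 highest, as for CCND2. CDKN1C was most like the oxytocin gene OXT (0.93), SLC2A5, a fructose transporter (0.91), and the splicing factor gene SNRPA (0.87). OXT was 2.29, 1.29, 3.09 and 3.69 in E2S fetuses 1 to 4 and 3.82, 3.09, 3.89 and 3.09 in vehicle fetuses 1 to 4, so E2S fetus 4 was highest and E2S fetus 2 lowest for both. These likenesses describe 8 arrays and were picked as the highest of 797 each.

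Marker genes of several cell types stood among the probes at a low unadjusted p. Over all marker lists, 9 of 40 genes tested were higher in the E2S group at limma's unadjusted p under 0.05 and 2 were lower, against 6.24% and 2.93% of all probes, and none passed after adjustment. The higher ones were AGRP, NPY and GHRH of hypothalamic neurons, SLC1A2 of astrocytes, FLT1 and EDN1 of endothelium, COL3A1 and COL6A1 of meninges and fibroblasts, and IGF2 of choroid plexus. The lower ones were NPVF of hypothalamic neurons and PTGDS of meninges and fibroblasts, so these 2 lists went both ways. Of the hypothalamic neuron genes tested, 7 were above 0 and 4 below, and of the meninges and fibroblast genes 4 were above and 1 below. The probes that stood for FLT1, COL3A1 and COL6A1 were not well above background in any vehicle fetus and met the filter through the E2S group alone. For COL3A1 and COL6A1 the lowest vehicle level that could be measured was at least as high as the E2S mean, so no rise is measured. In all 12 lists with a gene on the array, the range of the summed level overlapped between the groups. For hypothalamic neurons the sum was 14.0 to 43.0 times the 75th percentile in the E2S group and 22.6 to 37.3 in the vehicle group, for astrocytes it reached 46.7 and 41.9, and for endothelium 2.97 to 4.29 and 2.72 to 3.69. Their part in the differences of LEF1, FGFR2, CCND2 and CDKN1C was not tested.

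The other genes of these pathways were followed through lists in which the members were left out. Of 47 genes tested, 30 were above 0, with a median difference of 0.05 against 0.04 over all probes, of which 58.1% were above 0. With other scalings fewer of the 47 were above 0: 20 with cyclic loess, with median scaling and in the authors' deposited log2 values, 22 with quantile normalization and 23 with normexp. At an unadjusted p under 0.05 in limma, 4 were higher and 0 lower, a share of 8.51% against 6.24% and 2.93% of all probes tested, and 0 passed after adjustment. The 4 were CSNK1E, EGFR, FLT1 and IGF2. Without vehicle fetus 4 the counts were 7 higher and 1 lower, beside 7.82% of all probes higher, and with quantile normalization 2 and 0, beside 3.37%.

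On the Wnt side, the array names few genes and no other TCF factor. CSNK1E, a casein kinase 1 of the Wnt pathway that also acts in the circadian clock, was -2.80, -2.86, -2.88 and -3.05 in E2S fetuses 1 to 4 and -3.51, -3.77, -3.17 and -3.62 in vehicle fetuses 1 to 4. Every E2S fetus was above every vehicle fetus. The log2 difference was 0.62 ± 0.15 (SE, n = 4 each), with limma's unadjusted p = 0.002 and adjusted p = 0.385. Over 17 alternatives it stayed between 0.34 and 0.74, with adjusted p from 0.251 to 0.838. Its relative CSNK1D differed by 0.19 ± 0.17 (SE). The ligand WNT5A differed by 0.14 ± 0.14 (SE), and the receptors FZD2 and FZD3 by 0.02 ± 0.41 and -0.31 ± 0.22 (SE), with 0.11 on the other FZD3 probe. None of these 4 passed.

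Of the FGF ligands, 5 were tested, 4 were above 0 and the median difference was 0.51, but 0 passed at an unadjusted p of 0.05. FGF10 and FGF7 are the ligands best known for binding the IIIb form of FGFR2. FGF10 was -4.51, -4.31, -4.30 and -4.82 in the E2S group and -4.66, -4.90, -5.79 and -4.69 in the vehicle group, a difference of 0.52 ± 0.25 (SE; limma, unadjusted p = 0.068), and 2 vehicle fetuses were well above background. FGF7 differed by 0.52 ± 0.43 (SE) and was well above background in 3 E2S fetuses and 1 vehicle fetus. The other probes of both genes did not pass the filter and were not well above background in any vehicle fetus. Their means in the E2S and vehicle groups were, for FGF10, -7.09 and -7.08 (A_70_P012571), -6.02 and -6.58 (A_70_P068086) and -6.28 and -6.65 (A_70_P068087). For FGF7 they were -6.03 and -6.23 (A_70_P029932), -8.19 and -7.43 (A_70_P041666) and -8.06 and -7.32 (A_70_P041667). FGF2 differed by 0.51 ± 0.30 and FGF1 by -0.32 ± 0.18 (SE), so the ligands did not all lie on 1 side. The median of the list fell to 0.24 with quantile normalization and 0.095 with normexp, and to 0.27 and 0.26 without vehicle fetus 2 or 3.

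Among the receptors, FGFR1 differed by 0.21 ± 0.19 (SE) on its brighter probe and by 0.00 on the other, and neither FGFR3 probe was well above background in any fetus. The kinase genes ARAF and AKT1, which act below growth factor receptors, differed by 0.00 ± 0.12 and -0.01 ± 0.17 (SE). Of genes induced by the pathway, FOS differed by 0.28 ± 0.16 and EGR1 by 0.03 ± 0.18 (SE). Dimmer FOS probes differed by 0.20, -0.23 and 0.03, each with 1 vehicle fetus well above background. SPRY4, a feedback inhibitor, differed by 0.20 ± 0.17, and SPRY2 by -0.04 ± 0.14 (SE). A second SPRY4 probe differed by 0.52 but was not well above background in any vehicle fetus, so that only a difference of at least 1.07-fold is measured. The receptor genes EGFR and FLT1, from a list of other growth factor receptors, were both at an unadjusted p under 0.05. EGFR differed by 0.68 ± 0.23 (SE; limma, unadjusted p = 0.0151, adjusted p = 0.479), with 1 vehicle fetus well above background, and by 0.16 with normexp (unadjusted p = 0.189). FLT1 encodes a VEGF receptor of endothelium. Its probe A_70_P026631 was not well above background in any vehicle fetus and met the filter through the E2S group alone. Its log2 difference was 1.00, or 2.00-fold (limma, unadjusted p = 0.00395, adjusted p = 0.427). With normexp, the lowest of 16 alternatives, it was 0.36, so its size depends on how background is treated. Another FLT1 probe, A_70_P026602, was well above background in 1 vehicle fetus and differed by 0.64 ± 0.31 (SE; limma, unadjusted p = 0.0637).

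Of the cyclins and their kinases other than CCND2, 7 were tested and 0 passed, with 4 above 0 and a median of 0.06 that fell below 0 under every other scaling run, from -0.03 to -0.10. The nearest relative, CCND3, was 0.00, -0.32, -0.31 and -0.26 in the E2S group and -0.40, -0.38, -0.41 and -0.41 in the vehicle group, a separation of the groups with a small difference of 0.18 ± 0.11 (SE; limma, unadjusted p = 0.154). CDK4, the kinase that D-type cyclins activate, differed by -0.08 ± 0.14 and CDK5 by -0.13 ± 0.13 (SE). CDKN1B, which like CDKN1C encodes a kinase inhibitor, differed by 0.23 ± 0.37 (SE). The proliferation genes PCNA, AURKA and TYMS differed by -0.05 ± 0.16, 0.04 ± 0.15 and -0.23 ± 0.21 (SE), and none passed in either direction. Only these 3 of 29 listed genes of proliferation and DNA replication were on the array by name. Whether proliferation differed between the groups was not tested.

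IGF2, a growth factor that is imprinted like CDKN1C, had the largest difference of the pathway genes. It was -1.54, 0.72, 0.93 and -1.10 in E2S fetuses 1 to 4 and -1.61, -3.11, -1.76 and -0.54 in vehicle fetuses 1 to 4. E2S fetuses 2 and 3 were high, and vehicle fetus 4 was above E2S fetuses 1 and 4. The difference was 1.51 ± 0.67 (SE; limma, unadjusted p = 0.0496, adjusted p = 0.545), and it passed the unadjusted threshold in 5 of 17 alternatives, not including the replicate block (limma, unadjusted p = 0.0755). Its other probe differed by 0.88 ± 0.27 (SE), with 1 vehicle fetus well above background. IGF2 is also a choroid plexus marker, and the plexus marker TTR was -3.14, 0.27, 1.23 and 2.66 in the E2S group and -0.57, -0.90, -0.69 and -0.41 in the vehicle group. IGF2R, the clearance receptor for IGF2, differed by -0.05 ± 0.16 (SE). The receptor gene IGF1R differed by 0.37 ± 0.31 (SE) on its brightest probe. On A_70_P041041, well above background in all fetuses, it differed by 0.46 ± 0.18 (SE; limma, unadjusted p = 0.0292, adjusted p = 0.515). On A_70_P008176, with 1 vehicle fetus well above background, it differed by 0.75 ± 0.25 (SE; limma, unadjusted p = 0.0155, adjusted p = 0.481). Over the 10 genes of the IGF system tested, 5 were above 0 and the median was -0.02.

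**Figure D5:**
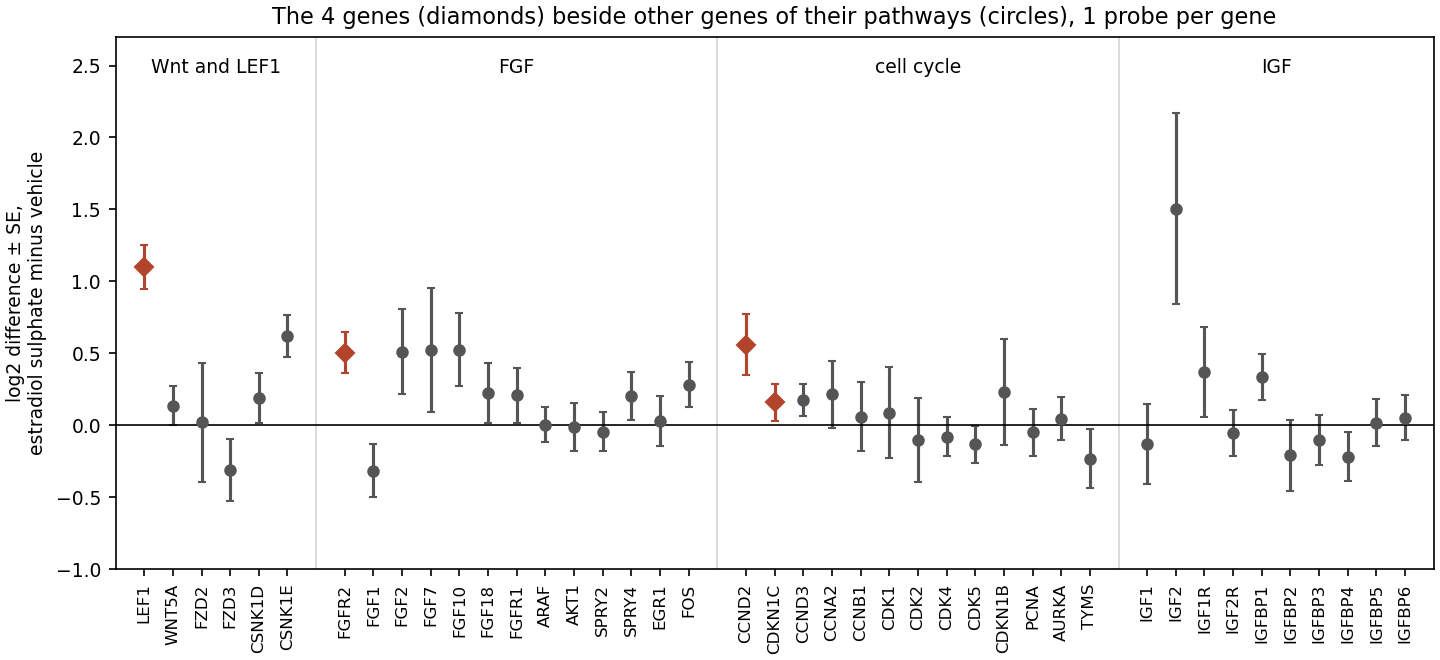
Log2 difference, E2S minus vehicle, with its fitted SE, of LEF1, FGFR2, CCND2 and CDKN1C (diamonds; 1 probe each) and of other genes of the Wnt, FGF, cell cycle and IGF lists (circles; the brightest probe of each). LEF1 at 1.10 and IGF2 at 1.51 are the highest points, the error bar of IGF2 is the widest at 0.67, and most cell cycle genes lie close to 0.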

How the data were processed

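Per the file headers, Agilent Feature Extraction 10.1.1.1 read the spot intensity from a scan in 1 colour. The deposited processed values have the background subtracted and spatial trends removed within an array, with no normalization between arrays. The authors also deposited log2 values, each column being log2 processed intensity minus 1 constant to within 0.001 in 99.7% of probes. Its columns had medians of 0.0576 to 0.075. How the constant was chosen stays unknown, and the table served as an alternative.

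Control and outlier spots were left out, spots of a probe averaged, and log2 intensity taken minus that of the array's own 75th percentile. Probes well above background on at least 4 of 8 arrays were tested (11748; 3260 removed) with limma 3.58.1 in R 4.3.3 (two-sided, group as the only term, Benjamini-Hochberg over all probes), checked on simulated data. No member spot was an outlier or a surrogate, and no probe was saturated. Each fetus was a replicate; 4 per group limit the precision. Fitted SEs come from this model.

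Names came from the array design, updated through a RefSeq gene table of assembly ARS-UI_Ramb_v3.0 (names only, no coordinates); 1662 probes had 1 and 13346 had none, and 16 design names were read by hand. The members, the pathway and marker lists and the tests were chosen with earlier results of these data known. In each pathway list, genes at an unadjusted p under 0.05, or otherwise the 2 smallest, are named, with the 3 named genes most like each member. FGF1, FGF7, FGFR3, CSNK1D, SPRY2, EGR1, PCNA, IGF1R, IGF2R, TTR, CGA and further probes of a gene were added after their values were seen. The probe with the highest mean signal stands for a gene. A bound sets the E2S mean against the higher of a probe's own value and the lowest value well above background on each vehicle array. Alternatives were quantile, cyclic loess, median and normexp (offset 50) treatments, other filters, a trended prior, a mean over a gene's probes, the replicate block and leaving out each array.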

Additional observations from a re-analysis of the deposited data

How the results depend on the processing

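No difference of the 6 probes changed sign under any alternative run, and no probe passed the adjusted threshold in any of them (0 each). Differences moved by more than the spread between fetuses for LEF1 A_70_P068132 (0.87 with cyclic loess, 0.40 with normexp), FGFR2 A_70_P041781 (0.31 with quantile normalization, 0.20 with normexp) and FGFR2 A_70_P041782 (0.11 with normexp). Requiring all 8 arrays above background removes the LEF1 and FGFR2 probes. With 1 array left out, the differences ran from 0.99 to 1.17 and 0.55 to 1.51 for the LEF1 probes A_70_P068132 and A_70_P068131, 0.42 to 0.56 and 0.38 to 0.81 for the FGFR2 probes A_70_P041781 and A_70_P041782, 0.37 to 0.68 for CCND2 and 0.10 to 0.23 for CDKN1C.

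Probes higher at an unadjusted p under 0.05 numbered 396 with quantile normalization, 448 with cyclic loess, 345 with median scaling, 419 with normexp, 344 in the authors' deposited log2 values, 477 with all arrays above background, and 474 (without vehicle fetus 2) to 919 with 1 array left out. Lower ones numbered 753 with median scaling, 760 in the authors' values, 1185 with no filter, and 178 (without E2S fetus 2) to 372 with 1 array left out. The higher share of these calls was 68.1% as reported, 57.1% with quantile, 57.0% with cyclic loess, 55.9% with normexp, 31.4% with median scaling, 31.2% in the authors' values, 43.3% with no filter and 56.5% with all arrays above background. Median scaling moves the median over all probes from 0.04 to -0.06. The cause was not tested.

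The FGF ligand median was 0.24 with quantile normalization, 0.095 with normexp and 0.26 to 0.63 with 1 array left out. The cyclin and kinase median was -0.10 with cyclic loess, was below 0 in 8 of 17 alternatives and ran from -0.06 to 0.18 with 1 array left out. The medians of FGF feedback genes, proliferation genes, the IGF system and other receptors changed sign in 1, 1, 2 and 5 alternatives.

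Deviations of fetuses with equal replicate numbers correlated at 0.24, -0.014, 0.19 and 0.25. E2S fetuses 1, 3 and 4 each correlated best with the vehicle fetus of their own number and E2S fetus 2 with vehicle fetus 4. Fetuses with equal replicate numbers also shared the second number of the array position on the slide, so these correlations cannot show which fetuses were co-twins. The replicate number was therefore not used as pairing in the main fit. With the replicate block, 804 probes were higher, 354 lower and 0 passed, 3 pathway genes in place of 4 were at an unadjusted p under 0.05 (IGF2 was lost), and the member differences were the same by construction. Precision of the LEF1 and FGFR2 values is limited by signals near background in the vehicle group.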
